A study of Mus musculus with 7 samples.

Results

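DNA methylation was described around the genomic sites bound by CEBPB in untreated mouse dermal fibroblasts. All 7317 CEBPB peaks of untreated cells were taken, of 25287 peaks in the 3 peak lists of the series, and the methylation of CpG cytosines was averaged in 100-bp steps from each peak centre to 5 kb on both sides. The peaks were then split by peak score into 4 groups of equal size, numbered from score group 1 with the lowest to score group 4 with the highest scores and bounded at scores of 62.19, 83.65 and 132.38, and into 3 classes by the distance of the centre to the nearest end of a gene locus: 675 peaks within 1 kb, 1638 peaks at 1 to 10 kb and 5004 peaks over 10 kb away. Peaks had a median width of 464 bp, and 183 of them had no measured CpG within 250 bp of the centre. The cells were primary dermal fibroblasts of female FVB/N mice, grown for 8 days in medium with serum. The CEBPB immunoprecipitation of untreated cells was 1 library, the RNA of untreated cells was 1 library, and methylation came from 2 bisulfite libraries of untreated cells whose percentages were pooled in 1 file. CEBPB and ATF4 immunoprecipitations of cells given thapsigargin for 3 h, with 1 library each, served for the comparison with other peak lists. Nothing in the labels gives the number of mice behind a library.

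CEBPB is a basic leucine zipper (bZIP) transcription factor that acts in inflammation and in adipocyte differentiation. It binds DNA as a dimer, and the palindrome TTGCGCAA, with a CpG at its centre, is the textbook C/EBP sequence; paired with ATF4 it can bind composite sequences such as TTGCATCA. In mammals most CpGs are methylated, CpG-rich gene starts are usually not, and enhancers bound by transcription factors often lie in short stretches of low or intermediate methylation. Bisulfite sequencing reads methylated cytosines as C and unmethylated ones as T, and cannot separate methylation from hydroxymethylation.

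The RNA of the untreated cells fits the label of a fibroblast culture that also holds transcripts of other cells. All 12 fibroblast markers stood at FPKM 1 or more (FPKM, a fragment count scaled to transcript length and library size), with a sum of 16489 FPKM led by Col1a1 at 6473 FPKM. Macrophage and leukocyte markers reached 1348 FPKM in sum over 10 of 11 markers found in the table, led by the macrophage lysozyme Lyz2 at 879.7 FPKM, with a median of 49.1 FPKM. Muscle and pericyte markers came to 1643 FPKM, of which the actin gene Acta2 made up 1124 FPKM. The median of that list was only 9.74 FPKM, and which cells of the culture made Acta2 was not tested. Keratinocyte markers came to 25.3 FPKM, led by Krt17, with Ivl, Krt1, Krt15 and Lor under 0.1 FPKM. Endothelial, adipocyte and melanocyte or Schwann cell markers came to 25.2, 32.6 and 58.6 FPKM, led by Eng, Cd36 and Sox10. A methylation percent is a mean over the cells of the culture, and the part of these other cells in the intermediate values below was not tested. Cebpb itself stood at 33.4 FPKM.

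The sequences at the strongest peaks show which CpGs the averages are made of. They are 121 bases around the centre, on the plus strand of the mm9 reference, which is of another mouse strain than the cells; capitals mark CpGs. First come the 3 highest-scoring peaks within 1 kb of a locus end whose window holds no annotated untranslated region, beside the G protein-coupled receptor gene Gpr153, the ribose 5-phosphate isomerase gene Rpia and the kinetochore gene Casc5.
Gpr153, chr4:151649084-151649204: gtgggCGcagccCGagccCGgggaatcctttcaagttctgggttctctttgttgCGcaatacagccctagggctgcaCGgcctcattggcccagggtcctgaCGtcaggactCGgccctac
Rpia, chr6:70742311-70742431: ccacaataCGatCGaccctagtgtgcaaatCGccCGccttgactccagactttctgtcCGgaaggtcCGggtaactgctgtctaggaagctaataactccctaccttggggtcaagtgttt
Casc5, chr2:118872476-118872596: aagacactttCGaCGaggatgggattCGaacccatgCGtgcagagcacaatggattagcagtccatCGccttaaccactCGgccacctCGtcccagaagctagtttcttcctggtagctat
The window near Gpr153 held 7 CpGs, and their percentages lay between 0 and 12. Its highest CpG, with 12% on the plus and 10% on the minus strand, was the one inside a TTGCGCAA palindrome. The 6 CpGs near Rpia and the 7 near Casc5 read 0% on both strands. The next windows are, by the same rule, the 3 strongest at 1 to 10 kb, inside the serine protease gene Htra1, beside the growth regulator Myc and inside the kinase gene Cdkl4.
Htra1, chr7:138086891-138087011: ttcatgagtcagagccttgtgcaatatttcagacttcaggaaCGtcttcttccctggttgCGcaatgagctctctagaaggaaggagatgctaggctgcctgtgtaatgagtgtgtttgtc
Myc, chr15:61815032-61815152: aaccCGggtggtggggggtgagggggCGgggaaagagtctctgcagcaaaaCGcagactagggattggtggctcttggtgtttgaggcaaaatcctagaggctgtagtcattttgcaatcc
Cdkl4, chr17:80960191-80960311: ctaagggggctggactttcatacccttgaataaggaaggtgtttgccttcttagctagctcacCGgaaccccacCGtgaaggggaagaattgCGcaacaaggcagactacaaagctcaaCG
Near Myc all 3 CpGs read 0%. In Htra1 the CpG of the palindrome read 25% and 29% on the plus and minus strands, and the other CpG of the window 9% and 5%. In Cdkl4 the palindrome's CpG read 0% on both strands. The last windows are the 3 strongest over 10 kb from a locus end. The first has the microRNA gene Mir21 as its nearest locus, 19812 bp away. The others lie inside the matrix glycoprotein gene Emilin2 and the nucleotidase gene Nt5c2.
Mir21, chr11:86417412-86417532: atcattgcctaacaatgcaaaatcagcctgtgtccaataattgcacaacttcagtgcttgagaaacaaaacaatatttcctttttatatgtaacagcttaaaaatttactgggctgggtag
Emilin2, chr17:71649923-71650043: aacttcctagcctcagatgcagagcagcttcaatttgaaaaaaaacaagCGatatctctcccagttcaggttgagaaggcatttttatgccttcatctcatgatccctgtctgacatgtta
Nt5c2, chr19:46975991-46976111: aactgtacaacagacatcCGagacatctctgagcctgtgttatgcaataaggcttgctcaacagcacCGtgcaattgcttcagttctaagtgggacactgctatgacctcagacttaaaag
The peak near Mir21 had the highest score of the whole list, 1334, and no CpG in this window, which holds TTGCACAA, a C/EBP variant without one; the 4 CpG cytosines within 250 bp averaged 23.3%. The single CpG at Emilin2 read 6% on the plus and 17% on the minus strand.

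Methylation fell towards the centre of the untreated CEBPB peaks. Over the 103184 CpG cytosines within 250 bp of a centre the mean was 29.4%, against 66.6% in the flanks, the cytosines 4 to 5 kb away. The flank was at the level of the genome, where 38537328 CpG cytosines averaged 66.4%. The centre was thus 37.3 percentage points below its flank, and the innermost 200 bp stood at 25.2%. In 20-bp steps, added after the data were seen, the mean was lowest beside the centre, at 24.0%, and stood at 44.9% on the left and 45.03% on the right at 480 to 500 bp. It rose outwards to 51.1% at 500 to 1000 bp, 58.2% at 1000 to 1500 bp, 62.0% at 1500 to 2000 bp and 65.9% at 3000 to 3500 bp. The profile was almost the same on both sides: mirrored 100-bp steps differed by a median of 0.741 points and at most by 2.90 points. The width at the level midway between centre and flank was 1184 bp.

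**Figure D1:**
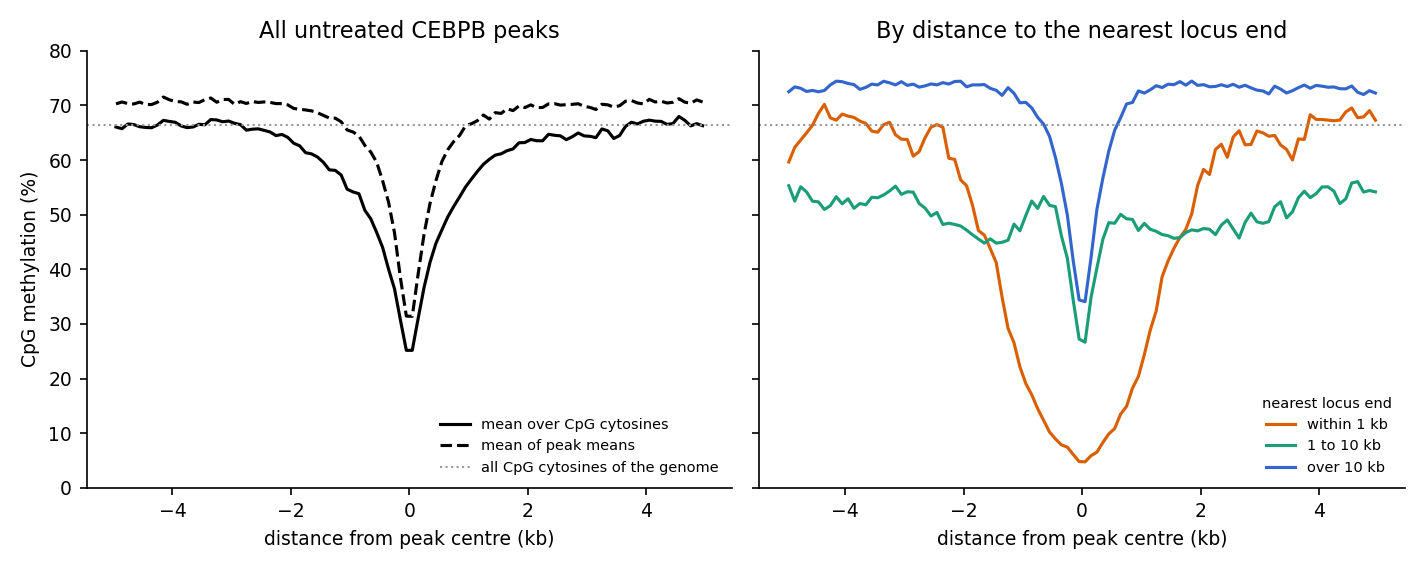
Mean CpG methylation (percent) in 100-bp steps against the distance from the peak centre (kb). Left, all 7317 peaks, as the mean over cytosines (solid) and the mean of the peaks' own means (dashed), with the genome mean of 66.4% dotted; right, the mean over cytosines in the 3 distance classes, whose centres stood at 5.73%, 32.3% and 39.9%.

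Counted peak by peak, so that CpG-rich peaks weigh no more than others, the centre mean was 39.4 ± 22.6% (SD over 7134 peaks with a measured cytosine) and the flank mean 71.9 ± 15.2%. The centre was below its own flank in 6390 of 7130 peaks. Of 6948 peaks with at least 2 cytosines at the centre and 10 in the flank, 4778 (68.8%) lay at least 20 points below the flank and 186 (2.68%) at least 20 points above it. The same count over 202884 windows set every 10 kb along the genome gave 13.0% below and 11.4% above, which is the background for these shares. Peaks are not replicates of a condition, and with 1 ChIP library and 1 pooled methylation file no difference here has a test; the SDs describe the spread between peaks. The number of reads behind a percent is not in the file. The 2 strands of a CpG give a view of the precision: over 50429 CpGs at peak centres their percentages differed by a median of 5 points, with an SD of the difference of 12.3 points. Over the 24290 CpGs of intermediate methylation this SD was larger, at 16.1 points.

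Most peaks were neither unmethylated nor fully methylated. Of 7108 peaks with at least 2 cytosines, 1499 (21.1%, 95% Wilson interval 20.2 to 22.1) averaged under 20%, 5384 (75.7%) between 20% and 80%, and 225 (3.17%) over 80%. In the windows along the genome these shares were 2.39%, 65.4% and 32.2%. In peaks of the intermediate class with at least 6 cytosines, the SD between cytosines of a peak had a median of 18.1 points, against 7.15 points in peaks under 20% and 10.4 points in peaks over 80%. The 2 strands of a CpG also differed more at intermediate values, and the part of measurement precision in these SDs was not tested. In 913 of the 4397 intermediate peaks with at least 6 cytosines (20.8%), at least 1 cytosine stood under 20% and another over 80%. The 225 methylated peaks had low scores, with 113 in score group 1, 46 in score group 2, 45 in score group 3 and 21 in score group 4, and 168 of them lay over 10 kb from a locus end.

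Higher peak scores went with lower methylation at the centre, while the flanks differed little. From score group 1 to score group 4 the mean over cytosines was 33.9%, 33.1%, 30.04% and 21.8% at the centre, and 68.7%, 65.6%, 68.2% and 64.3% in the flank. The peaks' own means were 45.2 ± 23.5%, 42.5 ± 21.7%, 39.1 ± 21.6% and 31.1 ± 20.9%, so the score groups differed by less than the spread between the peaks of a group. The share of peaks at least 20 points below the flank was 60.3%, 64.5%, 70.04% and 80.1%, against 68.8% of all peaks and 13.0% of the genome's windows, and the share under 20% was 16.0%, 16.2%, 19.9% and 32.1%. The step was largest between score groups 3 and 4. The width of the minimum did not follow the score, with 1322, 1046, 1247 and 1125 bp. Across 7108 peaks, which share their libraries, the Spearman correlation of score and centre methylation was −0.24, and that of score and flank methylation −0.00075. The 20 highest scores averaged 17.7 ± 16.2% at the centre, and all 20 lay below their flank.

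**Figure D2:**
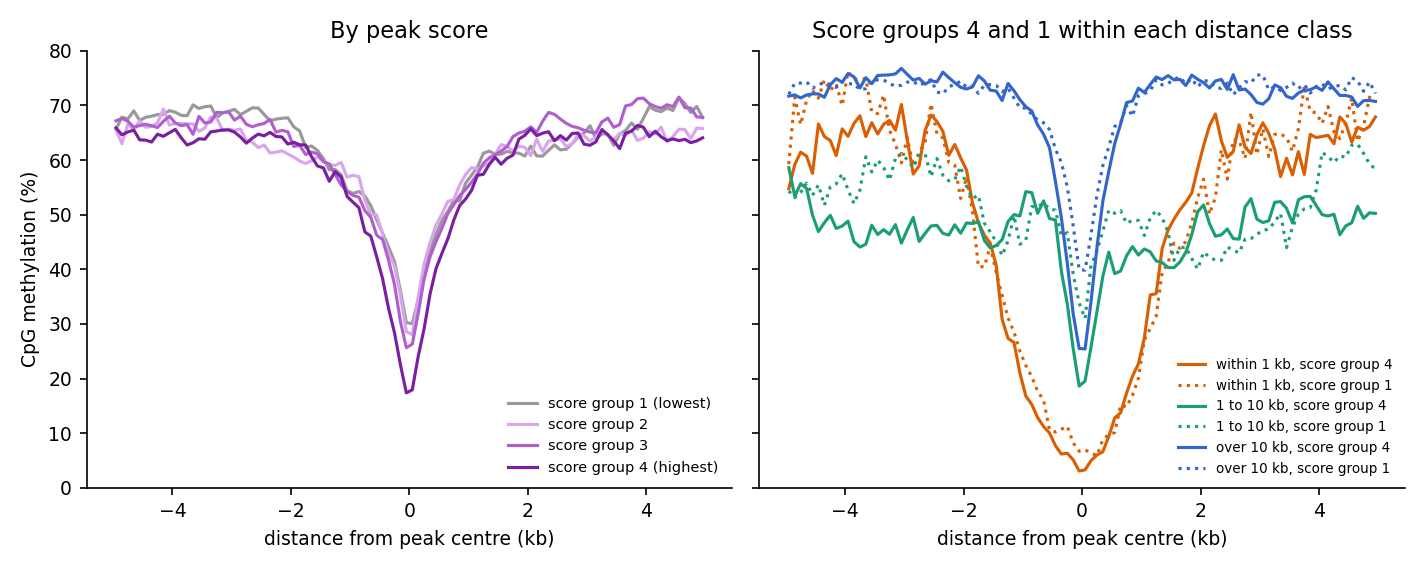
Mean CpG methylation (percent) over cytosines in 100-bp steps against the distance from the peak centre (kb). Left, the score groups, whose centre means within 250 bp were 21.8% in score group 4 and 33.9% in score group 1; right, score groups 4 (solid) and 1 (dotted) within each distance class, where score group 4 lies lower at the centre in every class.

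The shape of the minimum differed with the distance to a locus end, and peaks over 10 kb from an end can still lie inside a gene. Within 1 kb of a locus end the centre was nearly unmethylated, at 5.73%, in a basin 2685 bp wide between flanks of 66.8%. At 1 to 10 kb the centre stood at 32.3%, in a minimum of 575 bp, between flanks of 53.7%; here the profile had shoulders of 50.2% at 500 to 1000 bp and a dip to 46.2% at 1500 to 2000 bp before the flank. Over 10 kb away the centre stood at 39.9%, in a minimum 713 bp wide between flanks of 73.1%, and the profile was back at 72.6% by 1000 to 1500 bp. The peaks' own means were 13.99 ± 20.4% (median 2.61%), 39.4 ± 23.0% and 43.0 ± 20.3% in the same order. Peaks under 20% made up 72.0%, 23.4% and 13.2% of the classes, and peaks at least 20 points below the flank 89.5%, 60.3% and 68.7%, against 68.8% overall. Those at least 20 points above it made up 0.602%, 7.70% and 1.28%, against 2.68% overall. Both shares are set against flanks that differed between the classes.

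**Figure D3:**
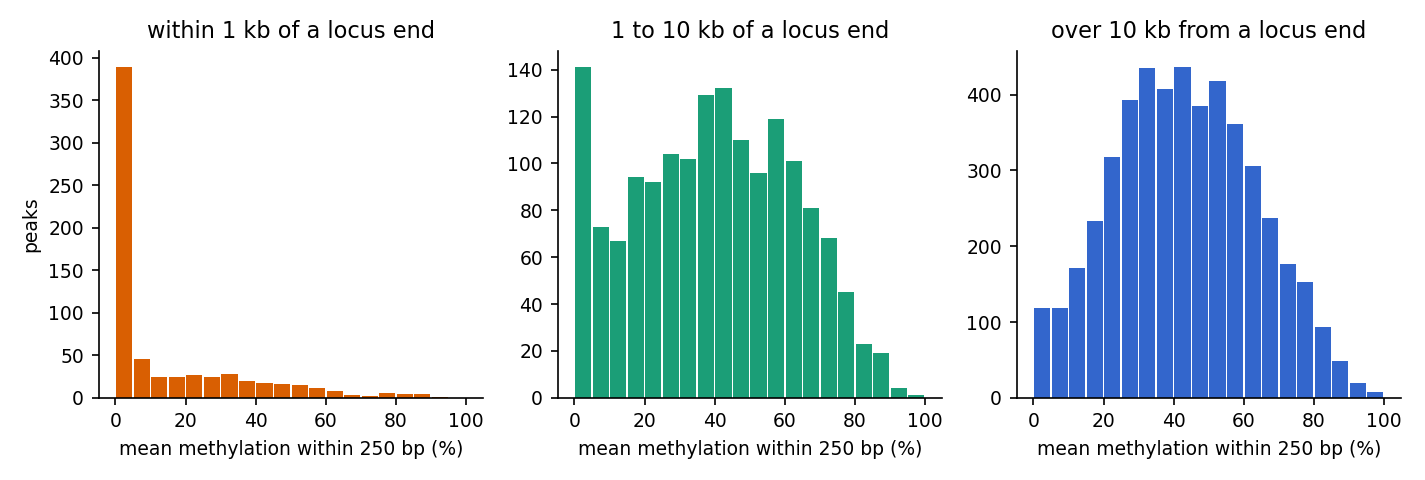
Number of untreated CEBPB peaks (y axis, a scale of its own in each panel) by mean methylation within 250 bp of the centre (percent, bins of 5), for peaks with at least 2 measured cytosines in the 3 distance classes. Peaks within 1 kb pile up at the unmethylated end, with a median of 2.61%, and peaks over 10 kb spread around a median of 42.5%.

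The fall with score was present in each distance class. Over 10 kb from a locus end the peaks averaged 48.04, 46.3, 42.5 and 34.8% from score group 1 to score group 4, and the widths of the minimum stayed between 708 and 725 bp. At 1 to 10 kb the means were 47.0, 41.1, 39.5 and 30.7%. Within 1 kb they were 17.8, 13.8, 14.1 and 11.1%, with score groups 2 and 3 out of order. The Spearman correlations of score and centre methylation were −0.10 in 672 peaks within 1 kb, −0.25 in 1601 peaks at 1 to 10 kb and −0.25 in 4835 peaks over 10 kb.

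Peaks next to gene starts and peaks next to gene ends differed within the nearest class. The 550 peaks whose nearest locus end was a start averaged 9.38 ± 15.8% (median 1.15%), in a basin 2780 bp wide. The 103 peaks nearest to a 3' end averaged 35.9 ± 26.1% (median 32.0%), in a minimum 959 bp wide. Peaks at starts of genes at FPKM 1 or more averaged 7.63 ± 13.9% (479 peaks), and those at starts of genes under FPKM 1 averaged 21.5 ± 22.1% (70 peaks). These sets also differed in CpGs within 250 bp of the centre, with medians of 21 at starts and 7 at 3' ends. Among starts the medians were 22 at FPKM 1 or more and 11 under FPKM 1. The part of CpG number in these differences was not tested. When the profiles of peaks nearest to a start were turned to the direction of transcription, the first kb downstream of the centre stood at 6.24% and the first kb upstream at 10.3%. The second kb stood at 31.2% downstream and 41.7% upstream. By place in the GENCODE annotation, the 3182 peaks in introns averaged 42.9 ± 21.6% and the 3316 intergenic ones 41.1 ± 20.4%, values that differ by far less than their spread. The 46 peaks in coding exons averaged 50.1 ± 22.1%.

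The number of CpGs moved with methylation too. Peaks with 1 to 4, 5 to 9 and 10 to 19 CpGs within 250 bp of the centre averaged 45.4, 41.8 and 30.2%. Those with 20 or more averaged 2.62 ± 7.61% (397 peaks), and 296 of these lay within 1 kb of a locus end. Within 1 kb the median was 17 CpGs per centre, against 6 at 1 to 10 kb and 5 over 10 kb, so CpG number moves with the distance classes. At like CpG numbers the class within 1 kb was still the lower: it averaged 37.9% and the class over 10 kb 46.0% with 1 to 4 CpGs, 31.1% and 42.4% with 5 to 9, 13.2% and 35.0% with 10 to 19, and 1.31% and 12.2% with 20 or more. The class at 1 to 10 kb averaged 43.5, 42.2, 31.3 and 3.54% in the same order. Among peaks over 10 kb away with 1 to 4 CpGs the score groups averaged 51.2, 48.98, 44.1 and 38.5%, and among those with 5 to 9 CpGs 47.1, 45.05, 43.3 and 33.8%. Among those with 10 to 19 CpGs they averaged 37.3, 40.8, 35.1 and 28.7%, with score group 2 above score group 1. Score group 4 was the lowest at each of these CpG numbers.

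Short sequences of the bZIP family were counted within 100 bp of each centre, on both strands. At least 1 of 6 C/EBP and C/EBP-ATF 8-mers lay in 34.7% of peaks. The variant TTGCACAA, which has no CpG, was present in 17.3% of peaks and in 0.617% of all windows of that length along the genome. The palindrome TTGCGCAA was present in 3.91% of peaks, against 0.0161% of windows. TTGCATCA and TTGCATAA were present in 6.59% and 6.16% of peaks, against 0.623% and 0.668% of windows, and TTGCGTCA in 1.79%, against 0.0508%. TTGCATCG, a composite with its CpG at the edge, was present in 0.164% of peaks (12 peaks), against 0.196% of windows. TGAGTCA, the 7-letter AP-1 sequence of JUN and FOS dimers, lay in 12.3% of peaks and 3.12% of windows, and the cAMP response element TGACGTCA in 0.328% and 0.108%. TTGCGCAA was present in 2.73, 2.52, 2.57 and 7.82% of peaks from score group 1 to score group 4, and TTGCACAA in 12.7, 13.1, 18.2 and 25.04%, while TTGCATCA stayed between 6.34 and 6.72%.

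The CpG at the centre of the palindrome kept more methylation than the CpGs around it. The 568 cytosines inside TTGCGCAA at 286 peaks averaged 53.8 ± 35.5%, against 18.8 ± 27.4% in the 2970 other CpG cytosines within 100 bp of the same centres and 78.0% in the 4005 cytosines of this palindrome measured across the genome. In the 260 peaks that had both, the palindrome's CpG stood 17.0 ± 17.4 points higher (SD over peaks), and it was higher in 195 peaks, lower in 43 and equal in 22. By distance from the 8-mer, CpGs at 1 to 20 bp averaged 18.7%, at 21 to 50 bp 17.7% and at 51 to 100 bp 18.3%. Further out they averaged 21.8% up to 200 bp, 27.2% up to 500 bp and 37.6% up to 1000 bp. These are means over cytosines, in which CpG-rich peaks weigh more outside the 8-mer than inside it. Of the 2970 other cytosines, 1492 lay at peaks within 1 kb of a locus end and averaged 2.93%. The difference peak by peak does not carry this weight. Over 10 kb from a locus end, only 34 of 5004 peaks had 20 or more CpGs within 250 bp of the centre. In this class the palindrome's CpG averaged 69.8 ± 26.0% and its neighbours 45.7 ± 27.8%, and it was the higher in 124 of 137 peaks.

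The palindrome's CpG followed the score as well. From score group 1 to score group 4 of the peaks over 10 kb away it averaged 86.7 ± 11.7, 79.5 ± 16.4, 79.6 ± 17.4 and 52.7 ± 27.9%, and the other CpGs within 100 bp 66.5, 59.7, 50.2 and 31.3%. The difference to the neighbours was 19.5, 23.5, 25.8 and 19.9 points peak by peak, with no order by score. Within 1 kb of a locus end both were low, 15.8% in the palindrome and 2.93% beside it over cytosines; peak by peak the difference was 6.34 ± 12.3 points, and the palindrome's CpG was higher in 23, lower in 20 and equal in 17 of 60 peaks.

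**Figure D4:**
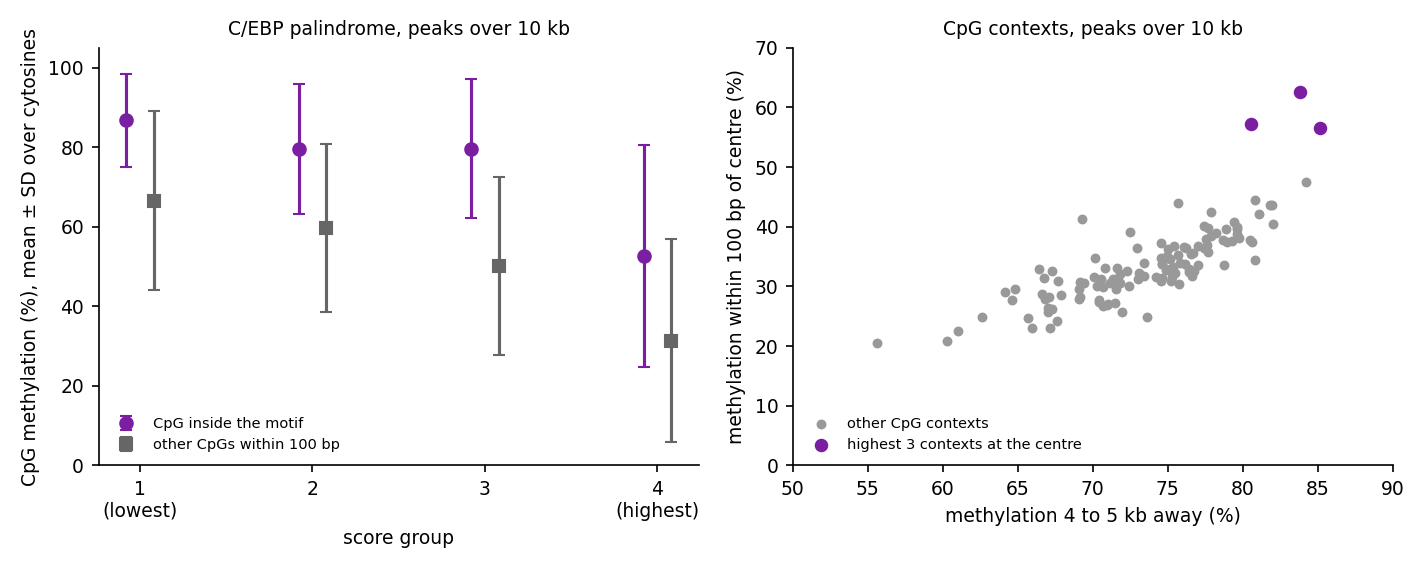
Left, methylation (percent, mean ± SD over cytosines) of the CpG inside the C/EBP palindrome and of the other CpGs within 100 bp, by score group in peaks over 10 kb from a locus end. Right, each of 122 six-letter CpG contexts with at least 50 cytosines in those peaks, by its mean 4 to 5 kb away (x axis) and within 100 bp of the centre (y axis); the 3 highest, at 56.6 to 62.6%, stand above the rest, which reach 47.4%.

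A look at all CpGs by the 2 letters on each side, added after the palindrome's values were seen, set 3 contexts apart by their level at the centre of peaks over 10 kb from a locus end. Of 122 contexts with at least 50 cytosines within 100 bp of a centre, counted with their reverse complements, the median was 32.7%. TGCGCA, the core of the palindrome, was highest at 62.6 ± 28.6% (415 cytosines). TGCGAA followed at 57.3 ± 25.3% and TGCGTA at 56.6 ± 25.2%, and the fourth, TACGTA, stood at 47.4%. Outside TTGCGCAA the core TGCGCA averaged 40.6% (100 cytosines). These contexts were also high far from the peaks: at 4 to 5 kb TGCGCA averaged 83.8%, TGCGAA 80.6% and TGCGTA 85.2%, with a range over the contexts of 55.6 to 85.2%. The fall towards the centre was 21.2, 23.3 and 28.6 points in these 3, against a median of 40.6 points over the contexts; GGCGAC, with a fall of 28.0 points, lay between the second and the third of them.

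The contexts ranked after the palindrome's core are those of TTGCGAAA and TTGCGTAA, which differ from the palindrome in their right side. Both 8-mers were counted after that was seen, and each lay in 264 peaks, 3.61% of the list, against 0.0570% and 0.0411% of windows. Both were picked by the level of their cores at these same centres, so a raised CpG was partly given by that choice. The CpG inside TTGCGAAA averaged 51.9 ± 29.96% and the CpGs beside it 20.3 ± 24.3%. Peak by peak it stood 18.6 ± 17.4 points higher, and it was higher in 188 of 228 peaks. The CpG inside TTGCGTAA averaged 52.8 ± 30.5% and the CpGs beside it 20.5 ± 25.2%. Peak by peak it stood 17.7 ± 18.7 points higher, and it was higher in 185 of 229 peaks. In the composite TTGCGTCA, which joins a C/EBP side to a cAMP response element side, the CpG averaged 33.1 ± 30.6% (264 cytosines) and the CpGs beside it 12.7 ± 22.1%. Peak by peak the CpG of this composite stood 7.93 ± 14.2 points higher, and it was higher in 64 of 121 peaks and lower in 44. In TTGCATCG it averaged 28.2 ± 21.5% (21 cytosines) and beside it 28.1 ± 24.6%; peak by peak it was 2.74 points lower on average, higher in 2 and lower in 8 of 10 peaks. In TGACGTCA it averaged 10.6 ± 14.4% (50 cytosines) and beside it 4.33 ± 14.2%, but peak by peak the direction was the other one, with the motif 3.88 points lower, higher in 2 and lower in 18 of 22 peaks. These last sets are small. The strongest peak that holds TTGCGTCA, near the ciliary transport gene Ift81, and the strongest that holds TTGCATCG, near the transcription factor gene Nfatc2, read as follows, with the 8-mer in capitals as it lies on the plus strand.
Ift81, chr5:122997527-122997647: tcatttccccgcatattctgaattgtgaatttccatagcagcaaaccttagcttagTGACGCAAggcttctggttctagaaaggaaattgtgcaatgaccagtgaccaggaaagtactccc
Nfatc2, chr2:168277407-168277527: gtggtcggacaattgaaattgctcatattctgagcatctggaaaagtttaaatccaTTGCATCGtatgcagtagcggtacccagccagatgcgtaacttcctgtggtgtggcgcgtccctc
Near Ift81 the CpG of the 8-mer read 14% and 29% on the plus and minus strands, and the other CpG of the window 13% and 17%. Near Nfatc2 the CpG of the 8-mer read 13% on both strands, within the range of 8 to 19% of the other 5 CpGs.

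Single peaks spanned the whole range. Of the 5 highest scores within 1 kb, the peaks near Casc5, Rpia, H2afj, 2900005J15Rik and Gpr153 averaged 0, 0.067, 0.848, 2.09 and 4.12%. Casc5 was flanked by an unmethylated side of 0.0078% at 200 to 1000 bp to the right and a methylated side of 59.1% to the left, so this peak lay at the edge of its basin. At 1 to 10 kb the peak in Btbd19 averaged 0% over 60 cytosines, and those of Myc, Klhl33, Cdkl4 and Htra1 averaged 0.269, 4.62, 8.93 and 10.6%. The Myc peak, too, lay at an edge, with 62.8% on the left and 0.383% on the right. Over 10 kb the peaks whose nearest loci were Id3, an inhibitor of differentiation, Emilin2, Smyd3, Mir21 and Nt5c2 averaged 8.61, 9.25, 16.5, 23.3 and 43.7%. The first of these lay outside its locus, 26526 bp from Id3. The Nt5c2 peak ranged from 0% to 79% over 9 cytosines.

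Gene lists chosen with earlier results of these data known were set against all 23235 gene entries. Of these, 3940 (17.0%) had a peak centre inside the locus or within 10 kb of it. Among entries at FPKM 1 or more the share was 24.2%, and among those below 9.41%. Most listed genes were at FPKM 1 or more: 17 of 20 C/EBP and bZIP partners, 18 of 18 ER stress and 18 of 23 acute phase genes. The same held for 25 of 25 fibroblast matrix, 13 of 17 adipogenic, 20 of 20 growth control and 12 of 14 DNA methylation genes. Of the C/EBP and bZIP partners 10 of 20 had a peak, and at 9 of these the strongest peak was under 20%; the median of these strongest peaks was 2.61%. Over all entries with a peak, the strongest peak was under 20% in 34.0% (1318 of 3877 with a value), with a median of 33.7%. Among those at FPKM 1 or more it was under 20% in 36.0% (1018 of 2828), with a median of 31.7%. The strongest peak lay within 1 kb of a locus end at 4 of the 10 members and at 986 of all 3940 entries. Atf3, a stress-induced bZIP repressor, had 0.036% over 84 cytosines at its start, Atf5 5.12%, the circadian repressor Nfil3 10.7% and Fosl2, an AP-1 subunit, 14.4%. Of the ER stress and integrated stress response genes 9 of 18 had a peak, with a median of 2.08%; at 6 the strongest peak was under 20% and at 5 it lay within 1 kb of a locus end. Herpud1, a component of ER-associated degradation, had 1.07%, the stress sensor Atf6 14.2%, Edem1, which takes part in the disposal of misfolded glycoproteins, 30.6%, and the chaperone gene Hspa5 44.0% over 4 cytosines.

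Of the acute phase and inflammation genes 13 of 23 had a peak, with a median of 28.7%, and 3 of these were under 20%. The prostaglandin synthase gene Ptgs2 had 1.10% at its start and the metalloreductase gene Steap4 4.52%. A peak within 10 kb of both chemokine genes Ccl2 and Ccl7 counted for each and had 22.3%. Of the fibroblast matrix genes 8 of 25 had a peak, with a median of 34.0%; all 25 were at FPKM 1 or more, where 24.2% of all entries had a peak. The 4 strongest lay inside the genes: the fibulin gene Fbln1 had 18.7% over 3 cytosines, the proteoglycan gene Dcn 23.8%, the fibrillin gene Fbn1 27.5% and the collagen gene Col3a1 40.5%. Of the adipogenic and lipid genes 7 of 17 had a peak, with a median of 34.1%. Klf9 had 0.127%, Klf4 20.8%, the fatty acid receptor gene Cd36 31.6% and Pparg, the master regulator of fat cells, 42.0% over 2 cytosines. Of the growth control genes 7 of 20 had a peak, with a median of 17.2%; Id1 had 9.5%, and the growth factor gene Igf1 41.0%. The peak of the cell cycle inhibitor gene Cdkn1b lay far above its flank, with 66.8 ± 35.1% over 6 cytosines and a flank of 3.54%. It was close to its nearer surroundings, with 64.2% on the left and 49.3% on the right at 200 to 1000 bp. The nearest annotated gene start lay 4017 bp from its centre, at the distance where the flank was taken. Smaller rises over the flank were found at Nfil3, Fosl2, Klf4 and Col3a1, with flanks of 5.88, 13.2, 13.4 and 32.1%. At 200 to 1000 bp, however, the Nfil3 peak lay below its surroundings, with 42.4% on the left and 72.6% on the right. The Col3a1 peak also lay below its nearer surroundings, with 67.9% on the left and 55.5% on the right. Fosl2 and Klf4 lay above their left sides of 10.4% and 9.15% and below their right sides. The other peaks named for these lists lay below their flanks. None of the 14 DNA methylation genes had a peak within 10 kb.

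Peaks in methylated DNA were few but not all weak. The 5 highest scores among peaks over 80% with at least 6 cytosines, picked after their values were seen, lay near Whsc1l1, Rab11b, Fert2, Myo10 and Mbnl1. Their centres averaged 86.0, 94.4, 86.2, 84.2 and 84.4%, and their scores were 281, 198, 194, 170 and 145, all in score group 4. At Rab11b, which encodes a small GTPase of recycling vesicles, the 10 cytosines lay between 87% and 100%.

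Untreated CEBPB peaks that also overlapped peaks of the other lists were lower. The 1531 that overlapped a CEBPB peak of treated cells averaged 31.2 ± 22.0%, and the 5786 others 41.7 ± 22.2%. In score group 4 the 780 overlapping peaks averaged 25.7% and the 1049 others 35.2%, and in score group 1 the 172 overlapping peaks 37.4% and the 1658 others 46.0%. The 194 that overlapped an ATF4 peak averaged 4.31 ± 12.6%, and the 7123 others 40.4 ± 22.0%. They also differed in CpG number, with a median of 33 CpGs within 250 bp of the centre in the peaks that overlapped an ATF4 peak and 5 in the others; its part in the difference was not tested. Peaks that overlapped a CEBPB peak of treated cells had a median of 7 CpGs, and the others 5.

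The same methylation file around the 3 lists gave profiles of different depth and width. The centre mean was 29.4% in CEBPB peaks of untreated cells, 43.0% in CEBPB peaks of treated cells and 5.40% in ATF4 peaks, with flanks of 66.6%, 66.2% and 66.3%. Over 10 kb from a locus end the means were 39.9%, 57.5% and 23.5%. The lists differ in where their peaks lie: 675 of 7317 untreated CEBPB peaks, 644 of 7861 treated CEBPB peaks and 6833 of 10109 ATF4 peaks were within 1 kb of a locus end. Score scales differ between the lists, with lowest values of 50.03, 2.03 and 1.35, so score groups can be read within a list only. Within the untreated CEBPB list, peaks over 10 kb away averaged 45.1% in score group 1 and 31.3% in score group 4. Within the treated CEBPB list they averaged 71.1% in its own score group 1 and 40.5% in its score group 4. Methylation was measured in untreated cells only, and each list is 1 library, so treatment, library and peak threshold cannot be told apart here.

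**Figure D5:**
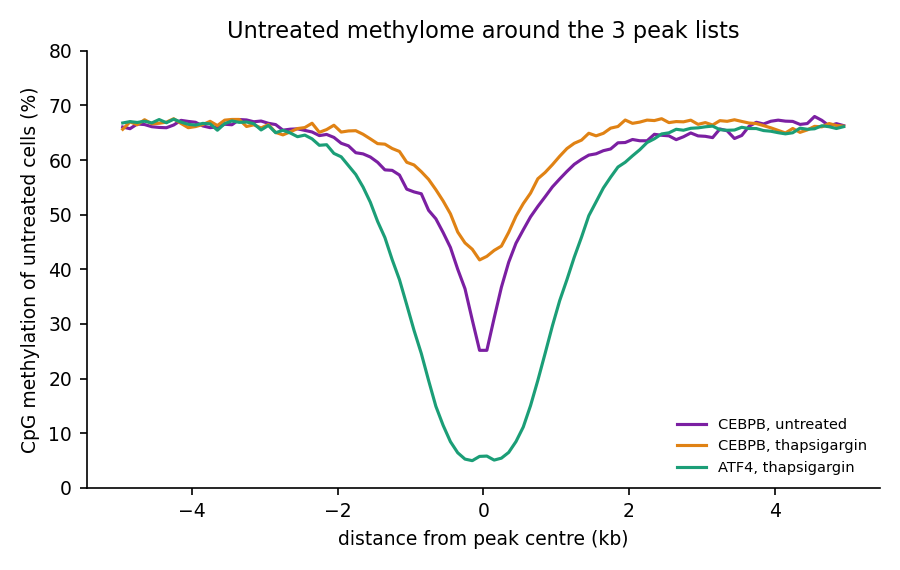
Mean CpG methylation of untreated cells (percent, over cytosines, in 100-bp steps) against the distance from the peak centre (kb) for the peaks of CEBPB in untreated cells, of CEBPB after thapsigargin and of ATF4 after thapsigargin. The centres stand at 29.4%, 43.0% and 5.40%, and the flanks of all 3 lists at 66.2 to 66.6%.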

How the data were processed

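The authors deposited methylation as 1 percent per cytosine for both bisulfite libraries together, with no coverage. Of the entries, 39464349 were marked CpG; 83035 marked as heterozygous were left out. The deposited peak lists, 1 per library, hold positions and the authors' score; peak names begin with a MACS prefix, whose version and control are not stated in those files or the labels. The lowest score was 50.03, so weaker sites are not listed. FPKM per gene entry of untreated RNA was deposited by the authors. Per the submitters' processing notes, reads went through CASAVA 1.7 with BWA and SAMtools (ChIP), CASAVA 1.8 with Novoalign (bisulfite) and CASAVA 1.8.2 with Bowtie (RNA), on mm9. No ChIP or bisulfite read depth is in the files.

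Computed here with Python 3.11.15, numpy 2.4.6, pandas 2.3.3 and pysam 0.24.0: means over cytosines within 5 kb of the midpoint of each peak, the centre (250 bp on each side), the flank (4 to 5 kb), and the mean per peak. Sequences, annotation (GENCODE vM1) and 8-mers came from the NCBIM37 reference, where 98.7% of measured positions are C or G on the right strand; 99.3% of CpG cytosines at centres had a value. Locus ends were those of the expression table. Named peaks were the 5 highest scores per distance class and up to 4 genes per list with the strongest peaks. Sequences were the 3 highest scores per class whose window holds no annotated untranslated region, and the highest peak per 8-mer with a CpG. Of the sequences picked by 8-mer, those for TTGCGTCA and TTGCATCG are shown. The members and lists were chosen with earlier results of these data known. With 1 library per group no test was run; Wilson intervals cover counting error only. The profile code was tested on simulated data.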

Additional observations from a re-analysis of the deposited data

Results flagged for a closer look

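Entries that the methylation file marks as heterozygous CpGs were left out of all values above. Within 250 bp of the peak centres there were 65 of them among 103249 entries (0.063%, 95% Wilson interval 0.049 to 0.080), and in the flanks 327 among 283073 (0.116%, 0.104 to 0.129). They drew notice as data outside the main measurement. Their mean methylation was 43.4 ± 36.4% at the centres and 52.9 ± 41.0% in the flanks.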

How the results depend on the processing

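No paired analysis was possible because the 2 bisulfite libraries were held pooled in 1 file and each other group had 1 library; for the same reason no library could be left out. Methylation means counted as moved at 5 points or more, widths and counts at 1.5 times, shares outside their Wilson interval. Of 104 alternative values, 72 stayed within these limits and 32 moved, and the cause of the moves was not tested. Only the depth and the difference between score groups could change direction under these rules, and 0 of their alternatives did so. The depth of the minimum lay between 28.7 and 42.0 points under 9 alternatives, and moved only without CpG-dense centres (28.7 points, with a width of 779 bp). The score group 4 minus score group 1 difference of centre means (−12.1 points) stayed within the limit in all alternatives run. As means of peak means the centres stood at 13.99% within 1 kb and 39.4% at 1 to 10 kb; without CpG-dense centres at 18.2% and 38.3%; within 50 bp of the centre at 26.5% (1 to 10 kb) and 33.5% (over 10 kb). The share of peaks with a minimum was 81.0% at 10 points, 39.8% at 40 points, 70.1% with 6 or more cytosines, 75.1% in the upper part of the scores (score groups 3 and 4) and 77.6% within 50 bp. Low and high centres made up 12.5% and 0.436% with limits of 10 and 90, 34.6% and 9.44% with limits of 30 and 70, and 22.9% and 2.53% with 6 or more cytosines. Centre means of peaks that overlap no peak of the other lists were 35.3% (untreated CEBPB) and 57.4% (treated CEBPB), and of peaks over 10 kb from a locus end 39.9%, 57.5% and 23.5% (ATF4). Searching the whole peak raised the peaks with TTGCATCG to 21, TGACGTCA to 43 and TGAGTCA to 1440. Genes with a peak numbered 6 (acute phase), 3 (adipogenic) and 3 (growth control) within 1 kb, and 16 (fibroblast matrix) and 15 (growth control) within 50 kb, against 13 (acute phase), 7 (adipogenic), 7 (growth control) and 8 (fibroblast matrix) within 10 kb. Without read numbers the precision of a single percent is unknown.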
